A study of Mus musculus with 20 samples.

Results

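The genes described here are the 9 listed members of the machinery that writes and removes methyl groups on cytosine in mouse DNA: the methyltransferases Dnmt1, Dnmt3a and Dnmt3b, their partners Uhrf1 and Dnmt3l, the dioxygenases Tet1, Tet2 and Tet3, and the glycosylase Tdg. They were taken by name, by matching Ensembl gene identifiers to these symbols, with no cut on a measured value. Earlier results of these data were known when the members were chosen. They are 9 of the 47643 genes in the deposited count table, and all 9 passed the filter on low counts in every comparison. RNA sequencing followed mouse embryonic fibroblasts (MEFs) of the B6DBA strain as small molecules turned them into chemically induced pluripotent stem (CiPS) cells, and the stated purpose of the treatment arm was to learn how crotonic acid, a short-chain fatty acid, promotes that conversion. The 19 libraries analysed were 2 CiPS lines derived with the crotonic acid method (CiPS CA), 1 line of the three-step method (CiPS three-step), 2 libraries each of reprogramming cells given crotonic acid and taken at days 20, 24 and 28 (D20+CA, D24+CA and D28+CA), 2 each of untreated reprogramming cells at days 16, 20, 24 and 28 (D16 to D28), 1 of MEFs and 1 of OG4, a line of embryonic stem (ES) cells from that strain. Treated cultures had crotonic acid at 6 to 8 mM in the medium, starting on day 16 and ending on day 28, so D20+CA cells had been exposed for the shortest time. No allele or transgene is given for any group. Whether the lines were kept on feeder cells, whether a line came from 1 colony, and whether replicates came from separate cultures was not stated in the labels. The p-values therefore cover only the scatter among these libraries, part or all of which may be technical.

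In mammals DNMT1 copies methylation onto the new strand after replication, and UHRF1 brings it to the half-methylated sites. DNMT3A and DNMT3B methylate sites that had no mark, and DNMT3L, which has no catalytic activity of its own, binds both and stimulates them in germ cells and early embryonic cells. The TET enzymes oxidise methylcytosine to hydroxymethylcytosine and further products, and TDG cuts out the most oxidised of these so that base excision repair can put back an unmodified cytosine. Mouse ES cells are known for high Tet1, Tet2, Dnmt3l and Uhrf1 transcripts, while Tet3 is best known from the oocyte, the zygote and differentiated tissues.

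Promoter sequences of 4 members are shown because these genes mark the extremes of what follows. Dnmt3l, Tet1 and Tet2 had the largest log2 fold changes in CiPS lines over day 28, and Tet3 is the member that fell there. Each window runs from 250 bases before to 50 bases after a RefSeq gene start on build GRCm38.p6, is written in the direction of the gene, and has every CG dinucleotide in capitals. Dnmt3l has 3 annotated starts, and the first is given.
Dnmt3l (chr10:78042037-78042336, plus strand): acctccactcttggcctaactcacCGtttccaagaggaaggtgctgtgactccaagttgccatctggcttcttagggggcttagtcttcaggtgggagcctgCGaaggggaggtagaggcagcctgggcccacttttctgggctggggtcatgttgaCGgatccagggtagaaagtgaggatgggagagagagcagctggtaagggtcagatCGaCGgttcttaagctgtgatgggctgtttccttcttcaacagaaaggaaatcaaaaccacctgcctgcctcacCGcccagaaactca
Tet1 (chr10:62887275-62887574, minus strand): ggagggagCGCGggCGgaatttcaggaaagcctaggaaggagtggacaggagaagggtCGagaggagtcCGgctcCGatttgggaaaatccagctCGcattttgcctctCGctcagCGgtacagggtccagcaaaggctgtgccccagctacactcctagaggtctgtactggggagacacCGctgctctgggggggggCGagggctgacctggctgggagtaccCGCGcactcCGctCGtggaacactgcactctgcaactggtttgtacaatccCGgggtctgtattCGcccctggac
Tet2 (chr3:133544341-133544640, minus strand): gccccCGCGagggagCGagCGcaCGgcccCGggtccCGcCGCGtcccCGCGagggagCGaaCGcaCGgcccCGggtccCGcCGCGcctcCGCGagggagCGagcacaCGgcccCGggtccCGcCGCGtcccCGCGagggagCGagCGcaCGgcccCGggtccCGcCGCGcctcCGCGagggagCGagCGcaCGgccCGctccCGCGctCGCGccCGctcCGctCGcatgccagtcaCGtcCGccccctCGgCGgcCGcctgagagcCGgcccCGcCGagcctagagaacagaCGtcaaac
Tet3 (chr6:83441629-83441928, minus strand): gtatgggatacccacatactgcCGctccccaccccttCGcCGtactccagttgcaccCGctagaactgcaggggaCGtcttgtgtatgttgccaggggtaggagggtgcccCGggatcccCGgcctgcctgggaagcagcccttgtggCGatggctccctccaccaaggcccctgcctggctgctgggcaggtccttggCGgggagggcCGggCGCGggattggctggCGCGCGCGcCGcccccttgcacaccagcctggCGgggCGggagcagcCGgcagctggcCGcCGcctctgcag

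The Dnmt3l window held 6 CG dinucleotides, and the windows of its other 2 starts held 4 and 3. The Tet1 window held 17, that of Tet3 held 22 and that of Tet2 held 57, a number that 0.152% of the 32851 RefSeq windows of this length reach. All 9 members matched the RefSeq table, with 16 windows and a median of 20 CG dinucleotides, where all windows had a median of 7. The fewest in a member window was 2, at the first of 3 Dnmt1 starts, the last of which held 33. Dnmt3l, with few CG dinucleotides at every start, and Tet2, with the most, were both higher in the lines. An E2F-type motif (TTTGGCGC or TTTCCCGC, either strand) was found in 1 member window, the last start of Dnmt1, and in 1.56% of all windows, and the octamer ATGCAAAT (either strand) was in none of the members' windows and in 1.74% of all windows. No match says only that these letters are not in the window.

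Libraries held 17475848 to 26609755 counted reads. Levels are given as CPM, a gene's counts per library total scaled by TMM factors, and as FPKM, which is also divided by gene length, where genes are compared with each other. Summed CPM of 8 naive pluripotency markers was 4301 to 5367 in the CiPS lines, 4480 in ES cells, 412 to 481 at untreated day 28 and 2.54 in MEFs, with all 8 markers detected in the lines and 5 of 8 at 0 in MEFs. Summed CPM of 7 fibroblast markers was 14337 to 18448 in the CiPS lines, 19769 in ES cells, 1220 to 5594 in the reprogramming cells and 63357 in MEFs, so the CiPS and ES lines carried more fibroblast transcript than the reprogramming cells did. Summed CPM of 8 extraembryonic endoderm markers was 815 to 875 in the CiPS lines, 924 in ES cells, 5592 to 17284 in the reprogramming cells and 2714 in MEFs. The 6 liver genes checked summed to 94.1 CPM in D28+CA replicate 1, 37.8 in D20+CA replicate 2 and 64.7 in MEFs, against at most 3.75 in the other reprogramming libraries. The day 16 replicates stood furthest apart of all replicate pairs: the chi-squared of their difference per degree of freedom was 101, against 5.18 to 48.9 in the other groups, and 20 replication and mitosis genes summed to 1687 CPM in D16 replicate 1 and 3241 in replicate 2.

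**Figure D1:**
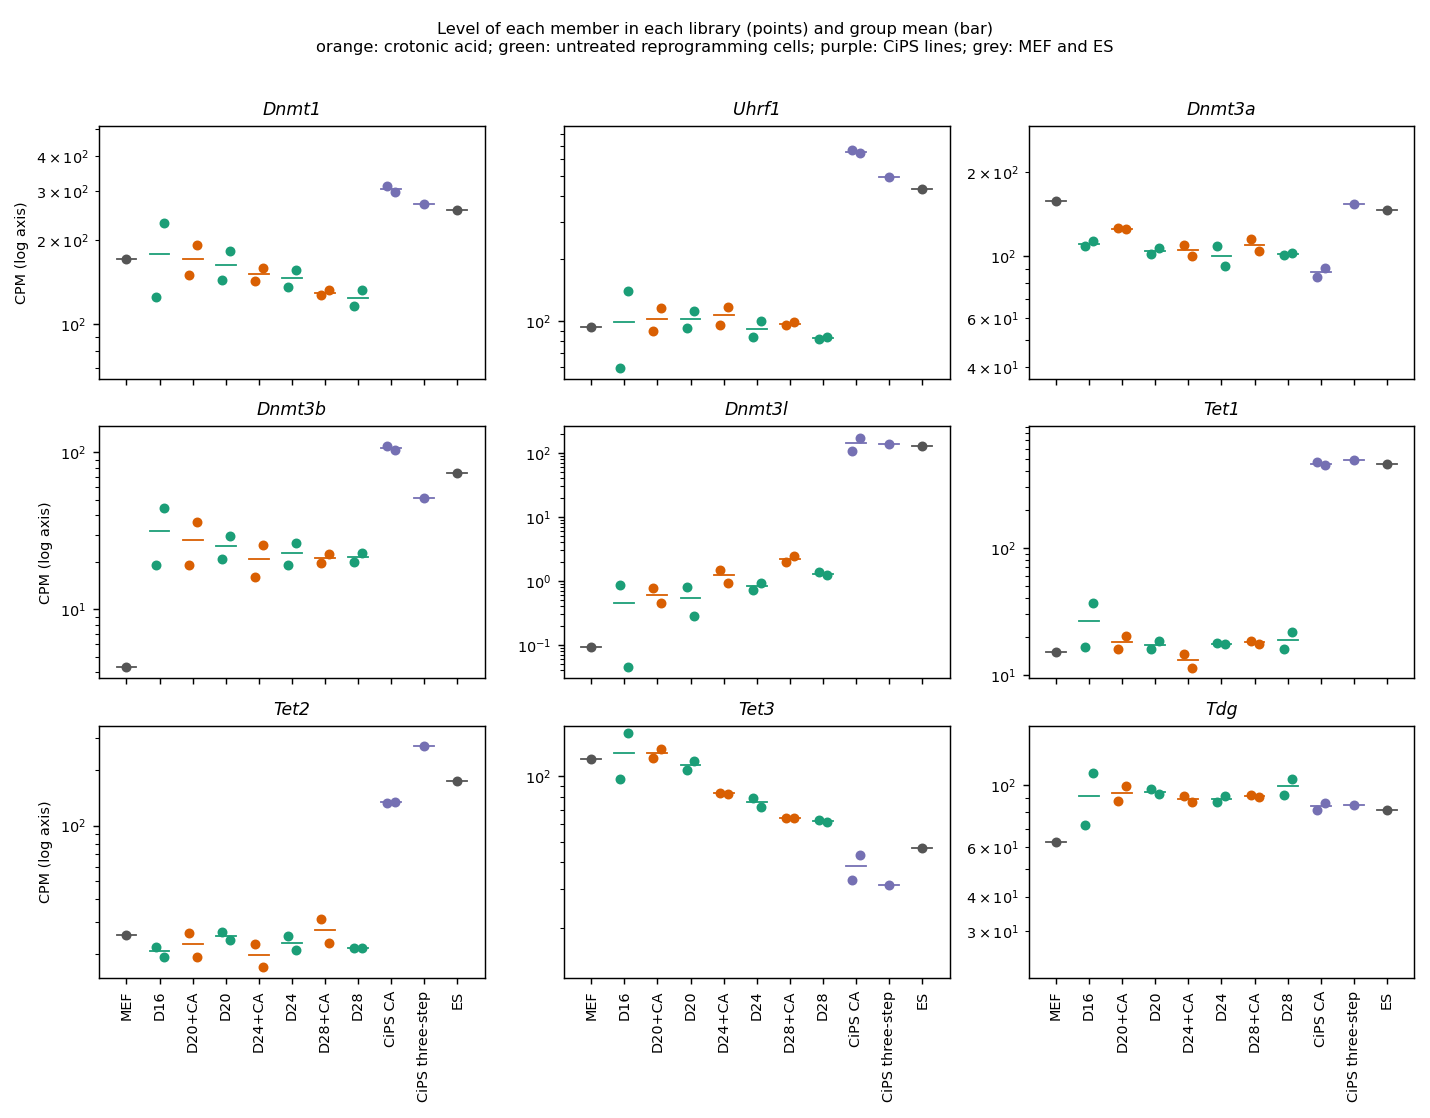
Level of each of the 9 members in every library, in CPM on a log axis; points are libraries and bars are group means, with crotonic acid cultures left of the untreated cultures of the same day. Dnmt3l, Tet1, Tet2 and Uhrf1 are high in CiPS and ES lines, Tet3 is lowest there, and Tdg lies within 62.5 to 111 CPM throughout.

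Some members stayed within narrow bounds, and others separated the pluripotent lines from the other cells. Tet3 and Dnmt3b also moved before the lines. Tet3 ran from 61.6 to 158 CPM in the reprogramming cells, and Dnmt3b had 16.1 to 44.1 CPM there, against 4.28 CPM in MEFs. Tdg, the glycosylase, ranged over all libraries from 62.5 CPM in MEFs to 111 CPM in D16 replicate 2. Dnmt3a ranged from 84.4 CPM in CiPS CA replicate 1 to 158 CPM in MEFs. Dnmt3l, by contrast, had 1 count in D16 replicate 2 and 3934 counts in CiPS CA replicate 2. Near-identical or overlapping genes held few reads: the table gave Dnmt3c, the rodent copy of Dnmt3b, at most 6 counts in any library, a Tdg pseudogene at most 6, a Dnmt3l pseudogene at most 4, a Dnmt3a pseudogene at most 9, and the antisense genes of Dnmt3a and Dnmt3b at most 4 and 3.

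CiPS lines were compared with untreated day 28 cells, the last stage sampled before lines. Of the 9 members 6 rose and 1 fell (edgeR's quasi-likelihood test with Benjamini-Hochberg adjustment, 3 lines against 2 libraries). Of all 19597 genes tested 59.5% were called and 29.1% were called higher, so a call by itself was common in this comparison. The median log2 fold change over the members was 2.03, against 0.02 over all genes tested. In bulk RNA, fewer cells of a type and less RNA per cell cannot be told apart, and that holds for every level given here.

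For maintenance methylation, both genes were higher in the lines. Uhrf1, which recruits DNMT1 to half-methylated sites, had 666, 642 and 493 CPM in the lines, against 81.9 and 84.2 CPM at day 28. Dnmt1 had 314, 297 and 269 CPM in the lines, against 117 and 132 CPM at day 28. Neither gene's libraries overlapped between the groups, and the 3 lines kept the same order for both, with the three-step line lowest. The log2 fold change was 2.85 ± 0.30 for Uhrf1 (SE, adjusted p = 5.00e-06, edgeR) and 1.24 ± 0.22 for Dnmt1 (adjusted p = 0.000342, edgeR). On the per-length scale Uhrf1 had 2.71 to 3.20 times the FPKM of Dnmt1 in the lines and 0.942 to 1.04 times at day 28.

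Of the de novo group, Dnmt3l and Dnmt3b rose and Dnmt3a did not pass. Dnmt3l, the catalytically inactive stimulator, had 109, 174 and 136 CPM in the lines (CiPS CA replicates 1 and 2, then three-step), against 1.38 and 1.22 CPM at day 28. The day 28 level was 0.928% of the mean of the lines. At day 28 the 8 naive markers stood at 412 to 481 summed CPM where the lines had 4301 to 5367. The log2 fold change of Dnmt3l was 6.75 ± 0.53 (adjusted p = 3.98e-07, edgeR), the largest of the 9 members in this comparison. Dnmt3b had 110, 103 and 51.0 CPM in the lines, against 20.2 and 22.7 CPM at day 28, with the three-step line closer to day 28 than the CiPS CA lines were. Its log2 fold change was 2.03 ± 0.43 (adjusted p = 0.00143, edgeR). Dnmt3a had 84.4, 90.8 and 154 CPM in the lines, against 101 and 103 CPM at day 28, and the day 28 values lay between those of the lines (log2 fold change 0.11 ± 0.20, 95% interval -0.33 to 0.54, adjusted p = 0.664, edgeR). Without the three-step line the Dnmt3a value changed sign to -0.21 and did not pass (adjusted p = 0.122, edgeR).

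The Tet genes went in opposite directions. Tet1 had 469, 446 and 491 CPM in the lines, against 15.8 and 21.8 CPM at day 28. Its values in the lines lay close together, and the log2 fold change was 4.64 ± 0.31 (adjusted p = 9.89e-08, edgeR). Tet2 had 134, 135 and 269 CPM in the lines, against 21.8 and 21.7 CPM at day 28, with the three-step line at the top (log2 fold change 3.04 ± 0.31, adjusted p = 3.74e-06, edgeR). Tet3 had 33.1, 43.5 and 31.6 CPM in the lines, against 63.0 and 61.6 CPM at day 28, again with no overlap (log2 fold change -0.79 ± 0.18, adjusted p = 0.00202, edgeR). Tdg, which acts after the Tet enzymes, had 81.8, 86.5 and 85.4 CPM in the lines, against 92.6 and 106 CPM at day 28, and did not pass (log2 fold change -0.23 ± 0.15, 95% interval -0.54 to 0.08, adjusted p = 0.191, edgeR). The 7 calls held under each of the 13 alternatives run for this comparison. Other cell type markers moved with these results. Summed fibroblast markers were 14337 to 18448 CPM in the lines and 1220 to 1726 CPM at day 28, with 6 of 7 genes higher and 0 lower. Summed extraembryonic endoderm markers were 815 to 875 CPM in the lines and 12444 to 17284 CPM at day 28, with 7 of 8 genes lower and 1 higher, Sall4, which pluripotent cells also express. Summed macrophage markers were 41.6 to 82.5 CPM in the lines and 18.9 to 19.4 CPM at day 28, with 4 of 6 genes higher. The part of these cells in the members' values was not tested.

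**Figure D2:**
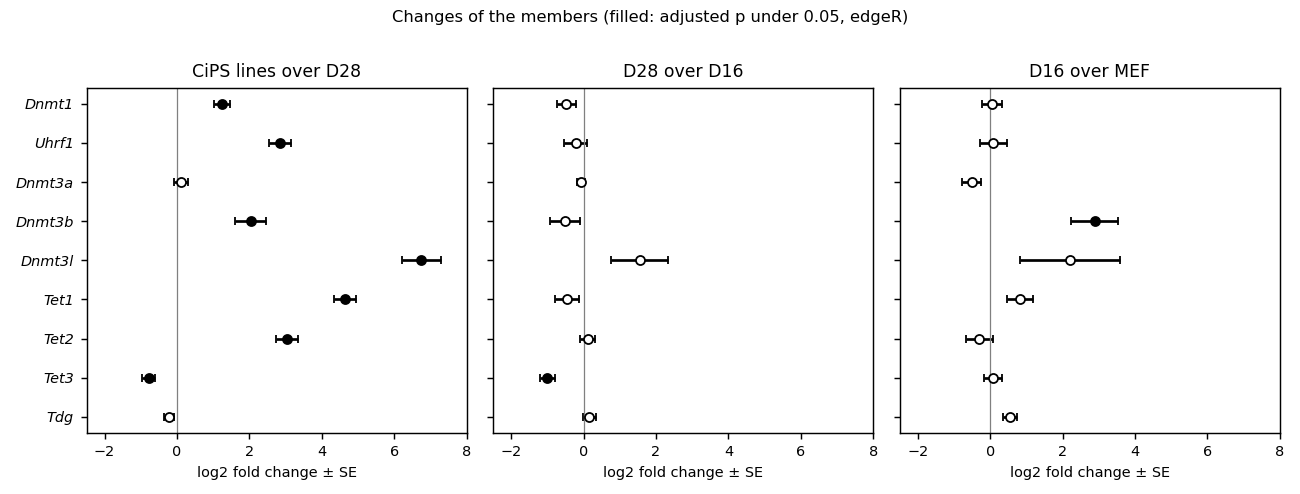
Log2 fold changes of the 9 members with standard errors in 3 comparisons; filled points have an adjusted p under 0.05 in edgeR. In CiPS lines over D28 6 members lie to the right of 0 and are filled and Tet3 is filled at -0.79; in D28 over D16 Tet3 is filled at -0.999; in D16 over MEF Dnmt3b is filled at 2.88.

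Per length, the make-up of each family turned over between reprogramming cells and lines. FPKM uses 1 length per gene in every library, so longer and shorter transcript forms of a gene were not told apart. Tet3 supplied 55.5 to 76.1% of the summed Tet FPKM in the 14 reprogramming libraries, with a median of 69.5%, and 74.0% in MEFs. Tet1 supplied 65.2 to 76.3% in the CiPS lines and 70.2% in ES cells, against 10.9 to 23.0% in the reprogramming cells and 10.5% in MEFs. The 3 Tet genes summed to 41.3 to 51.7 FPKM in the CiPS lines, against 6.14 to 12.9 FPKM in the reprogramming cells and 9.68 FPKM in MEFs. No line overlapped any reprogramming library in either quantity. Dnmt3l reached 1.37 to 2.37 times the summed FPKM of Dnmt3a and Dnmt3b in the CiPS lines and 1.88 times in ES cells. In the reprogramming cells that ratio was 0.000989 to 0.0776. The ratio of summed Dnmt1, Dnmt3a and Dnmt3b to summed Tet FPKM was 1.21 to 1.83 in the CiPS lines, against 3.55 to 5.36 in the reprogramming cells, and 1.45 in ES cells.

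**Figure D3:**
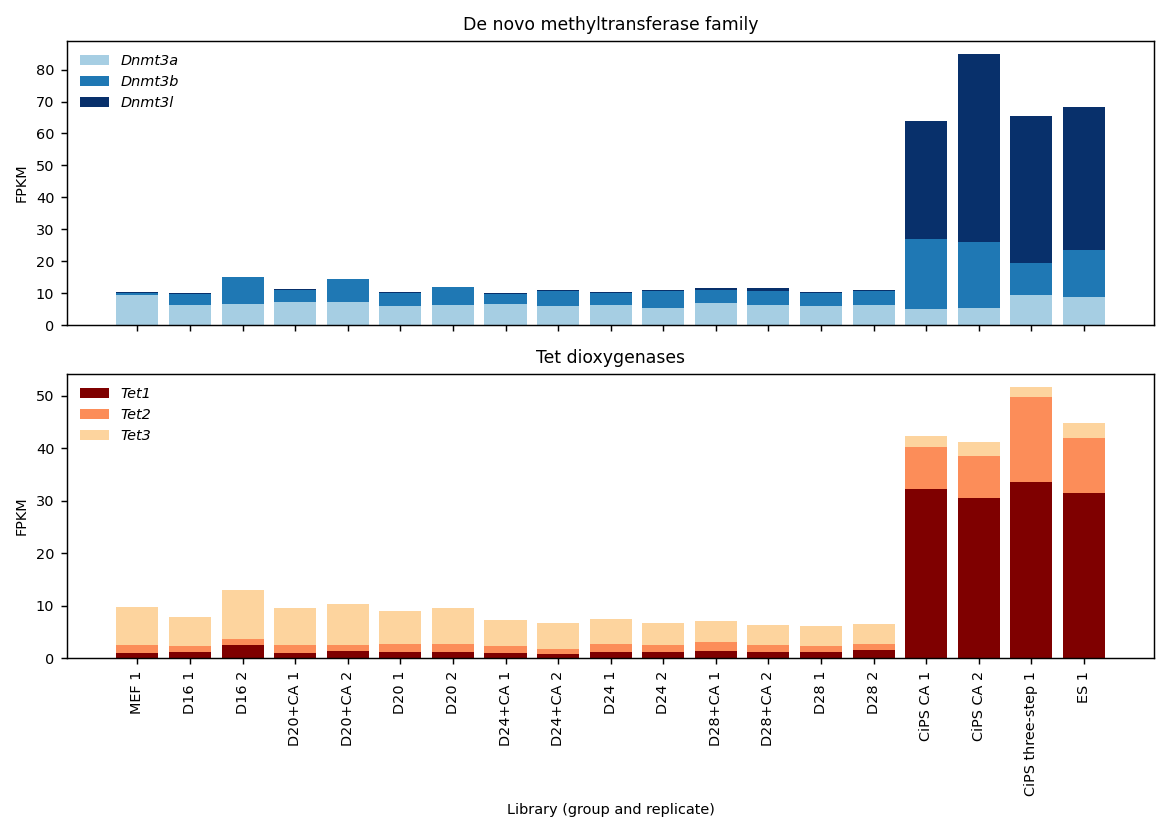
FPKM of Dnmt3a, Dnmt3b and Dnmt3l (upper panel) and of Tet1, Tet2 and Tet3 (lower panel), stacked from 0, in each of the 19 libraries. Tet3 makes up most of a small total up to day 28, and Tet1 makes up 65.2 to 76.3% of a total of 41.3 to 51.7 FPKM in the CiPS lines.

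Against MEFs, the starting cells, Uhrf1, Dnmt1, Dnmt3b, Dnmt3l, Tet1 and Tet2 were higher in the CiPS lines and Tet3 was lower. This compared the same 3 lines with 1 library, whose variance was taken from the other groups. Of all genes tested 53.1% were called and 25.7% were called higher. Tet1, at 15.1 CPM in MEFs, was higher by 4.96 ± 0.38 on the log2 scale (adjusted p = 2.24e-06, edgeR). Uhrf1 was higher by 2.68 ± 0.35, Tet2 by 2.81 ± 0.36 and Dnmt3b by 4.36 ± 0.59. Tet3, at 121 CPM in MEFs, fell by 1.75 ± 0.21 (adjusted p = 2.47e-05, edgeR). Dnmt3l had 9679 counts over the 3 lines and 2 in MEFs, and the ratio of their CPM was 1489 (95% counting interval 412 to 12299). Dnmt1, at 171 CPM in MEFs, was higher by 0.78 ± 0.24 (adjusted p = 0.0314, edgeR). Without CiPS CA replicate 1 its adjusted p was 0.0643, and without CiPS CA replicate 2 it was 0.0532. Dnmt3a at 158 CPM and Tdg at 62.5 CPM in MEFs did not pass (adjusted p = 0.0901 and 0.0693, edgeR). Without the three-step line Dnmt3a passed as lower in the lines (log2 fold change -0.85, adjusted p = 0.000321, edgeR), and in the compared libraries alone Tdg passed (adjusted p = 0.00795, edgeR). Scaling by total counts moved the median of all genes in this comparison to 0.29, from 0.02; the 7 calls kept their direction, and Tdg passed as well (adjusted p = 0.0136, edgeR).

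Against ES cells, the reference for pluripotency, 0 of 9 members were called (edgeR, 3 lines against 1), 0 had an unadjusted p under 0.05, and DESeq2 and limma-voom called 0. Of all genes tested 0.0204% were called. Tet1 had 469, 446 and 491 CPM in the lines, against 453 CPM in ES cells, and Dnmt3l had 109, 174 and 136 CPM against 130 CPM. For both genes the ES value lay inside the range of the lines. The largest log2 differences were 0.47 ± 0.35 for Uhrf1, -0.41 ± 0.25 for Dnmt3a and -0.37 ± 0.22 for Tet3. The design is too small to show likeness: the 95% intervals of the 9 log2 differences reached from -0.94 to 1.34.

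Within the lines, the 2 CiPS CA lines were set against the three-step line. Dnmt3a had 84.4 and 90.8 CPM in the CiPS CA lines, against 154 CPM in the three-step line and 146 CPM in ES cells. Its log2 fold change was -0.82 ± 0.13 (adjusted p = 0.0470, edgeR), and of all genes tested 0.122% were called. The call rested on the setting: adjusted p was 0.0508 with total-count scaling and 0.0514 with limma on log2(FPKM + 0.1), 0.279 without CiPS CA replicate 1 and 0.267 without CiPS CA replicate 2. Tet2 had 134 and 135 CPM in the CiPS CA lines, against 269 CPM in the three-step line and 174 CPM in ES cells. It did not pass in edgeR (log2 fold change -1.01 ± 0.22, adjusted p = 0.122), whereas DESeq2 gave an adjusted p of 0.0103 and limma-voom one of 0.0233. Dnmt3b had 110 and 103 CPM in the CiPS CA lines, against 51.0 CPM in the three-step line and 73.6 CPM in ES cells (log2 fold change 1.06 ± 0.48, adjusted p = 0.660, edgeR). On the per-length scale Dnmt3b had 3.71 and 4.23 times the FPKM of Dnmt3a in the CiPS CA lines, against 1.08 times in the three-step line and 1.65 times in ES cells. With 1 line of the three-step method, a difference between methods and a difference between lines cannot be told apart.

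The comparison of day 16 with MEFs shows which members had moved by the time crotonic acid was first given. Dnmt3b had 19.1 and 44.1 CPM at day 16, against 4.28 CPM in MEFs, and was the 1 member called (log2 fold change 2.88 ± 0.64, adjusted p = 0.00413, edgeR). Of all genes tested 32.7% were called. On the per-length scale Dnmt3b had 0.576 and 1.27 times the FPKM of Dnmt3a at day 16, against 0.0885 times in MEFs. Tet1 had 16.5 and 36.9 CPM at day 16, against 15.1 CPM in MEFs, and Tdg had 72.2 and 111 CPM, against 62.5 CPM. In both genes replicate 2 alone was far above MEFs, and neither passed (adjusted p = 0.0982 for Tet1 and 0.0511 for Tdg, edgeR). Without D16 replicate 1 the log2 fold change was 1.29 for Tet1 and 0.83 for Tdg, and without D16 replicate 2 it was 0.13 and 0.21. Dnmt3l had 19 counts and 1 count at day 16, against 2 in MEFs, and the ratio was 4.84 (95% counting interval 1.18 to 42.7). Its replicates disagreed in direction: the log2 fold change was -0.96 without D16 replicate 1 and 3.12 without D16 replicate 2. Dnmt3a had 108 and 113 CPM at day 16, against 158 CPM in MEFs, and did not pass (log2 fold change -0.51 ± 0.26, adjusted p = 0.160, edgeR). Total-count scaling moved the median of all genes to 0.37 here, from 0.03, and under it Tet1 and Tdg passed as well.

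From day 16 to day 28 without crotonic acid, Tet3 was the 1 member called. It had 97.7 and 158 CPM at day 16, 107 and 118 CPM at day 20, 79.9 and 72.0 CPM at day 24 and 63.0 and 61.6 CPM at day 28. Every library of days 24 and 28 lay below every library of days 16 and 20. At day 28 against day 16 Tet3 fell by 0.999 ± 0.20 on the log2 scale (adjusted p = 0.00686, edgeR), and 16.9% of the 17387 genes tested were called. With the replicate number as a block 5394 genes were called, against 2933 without it, and Tet3 stayed the 1 member called. Cell type markers moved over the same days. Summed fibroblast markers were 1726 and 1220 CPM at day 28, against 5594 and 2254 CPM at day 16 (4 of 7 genes fell), and summed extraembryonic endoderm markers were 12444 and 17284 CPM, against 7956 and 10607 CPM (2 of 8 rose). Summed naive markers were 412 and 481 CPM at day 28, against 59.0 and 44.4 CPM at day 16 (6 of 8 rose). The part of these shifts in Tet3 was not tested. Tet3 fell by 1.32 without D16 replicate 1 (adjusted p = 0.000308) and by 0.60 without D16 replicate 2 (adjusted p = 0.0121, edgeR), while a fit of these 4 libraries alone gave an adjusted p of 0.137. Over single steps 0 of 9 members were called in edgeR, DESeq2 or limma-voom at day 20 against day 16 (2.23% of all genes called), day 24 against day 20 (0%) and day 28 against day 24 (0%). With the block 1730, 132 and 175 genes were called in these steps, against 388, 0 and 0 without it, and still 0 members. The 1 member with an unadjusted p under 0.05 in any step was Tet3 at day 24 against day 20, at -0.56 ± 0.19 (adjusted p = 0.664, edgeR).

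The other members did not pass between day 16 and day 28, and several hung on 1 library. Dnmt1 had 117 and 132 CPM at day 28, against 125 and 230 CPM at day 16 (log2 fold change -0.48 ± 0.26, adjusted p = 0.240, edgeR). Dnmt3b (20.2 and 22.7 CPM at day 28, against 19.1 and 44.1 CPM at day 16) and Tet1 (15.8 and 21.8 CPM, against 16.5 and 36.9 CPM) had log2 fold changes of -0.52 ± 0.42 and -0.47 ± 0.33, and Uhrf1 one of -0.22 ± 0.32. In all 4 genes D16 replicate 2 was the highest of the 4 libraries compared. Without D16 replicate 1 the values of Dnmt1, Uhrf1 and Tet1 moved down to -0.87, -0.72 and -0.95, and that of Dnmt3l up to 4.68. Without D16 replicate 2 the values of Dnmt1, Uhrf1, Dnmt3b and Tet1 turned to 0.04, 0.53, 0.22 and 0.25. Each of these fits had 1 day 16 library. D16 replicate 2 also had the highest replication and mitosis sum of the reprogramming libraries, and the part of that difference in these values was not tested. Dnmt3l had 27 and 27 counts at day 28, against 19 counts and 1 count at day 16 (log2 fold change 1.55 ± 0.79, adjusted p = 0.212, edgeR).

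Crotonic acid was compared with no treatment on each day. No member passed: 0 of 9 were called at day 20, day 24 or day 28, where 0% of all genes were called on each day, and 0 of 9 in the average over the 3 days, where 1.04% of all genes were called (edgeR). Without the replicate block no member had an unadjusted p under 0.05 in these comparisons in edgeR, and DESeq2 and limma-voom called 0 as well. With the replicate number as a block, 1290 genes were called in the average, against 180 without it, and 6, 93 and 107 at days 20, 24 and 28, against 0 on each day; the number of members called stayed at 0. With the block Dnmt3a had an unadjusted p of 0.0388 at day 20 (log2 fold change 0.25 ± 0.11, adjusted p = 0.558, edgeR) and of 0.0473 in the average (0.14 ± 0.06, adjusted p = 0.221, edgeR). The difference in response between days 28 and 20 was not called for any member or any gene (0% of all genes), with or without the block; with it Tet2 had an unadjusted p of 0.0353 (adjusted p = 1, edgeR). Summed extraembryonic endoderm markers were lower with crotonic acid on each day without overlap, at 5592 and 7584 CPM in D20+CA, against 8263 and 9867 CPM in D20, at 6615 and 8144 CPM in D24+CA, against 10226 and 13472 CPM in D24, and at 9362 and 10842 CPM in D28+CA, against 12444 and 17284 CPM in D28. In the average 1 of these 8 genes, the basement membrane collagen Col4a1, was called lower. Summed CPM of 5 markers of the 2-cell embryo was 42.7 and 34.9 in D28+CA, against 11.6 and 6.33 in D28. For 6 germline markers the sums were 80.4 and 56.3 CPM in D28+CA, against 55.7 and 44.1 CPM in D28. At day 20 treated and untreated sums overlapped for both lists, and at day 24 for the germline list. The part of these shifts in the members' values was not tested.

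The values behind this were close. Tet3 was higher with crotonic acid on each day without overlap, but it passed on no day and not in the average. It had 121 and 134 CPM in D20+CA, against 107 and 118 CPM in D20. At day 24 Tet3 had 83.8 and 83.1 CPM with crotonic acid, against 79.9 and 72.0 CPM without. At day 28 it had 64.6 and 64.3 CPM with crotonic acid, against 63.0 and 61.6 CPM without. Dnmt3a had 126 and 125 CPM in D20+CA, against 102 and 107 CPM in D20, with no overlap. At day 28 Dnmt3a had 115 and 104 CPM with crotonic acid, against 101 and 103 CPM without, again with no overlap, whereas at day 24 the values overlapped (110 and 100 CPM with crotonic acid, against 108 and 92.1 CPM without). Its averaged log2 fold change was 0.14 ± 0.07 (95% interval -0.01 to 0.29, adjusted p = 0.465, edgeR), the smallest p among the members. Dnmt3l had 43 and 55 counts (1.98 and 2.48 CPM) in D28+CA, against 27 and 27 counts (1.38 and 1.22 CPM) in D28, and the groups did not overlap. The corresponding log2 fold change was 0.78 ± 0.71 at day 28 and 0.48 ± 0.44 on average (95% interval -0.48 to 1.45, adjusted p = 0.745, edgeR). Tet2 had 31.2 and 23.0 CPM in D28+CA, against 21.8 and 21.7 CPM in D28. The higher of the 2 treated values came from the library with 94.1 CPM of liver transcripts, and the part of these in Tet2 was not tested. Uhrf1 had 95.4 and 98.7 CPM in D28+CA, against 81.9 and 84.2 CPM in D28. Tet1 went the other way at day 24, with 14.6 and 11.3 CPM in D24+CA, against 17.7 and 17.6 CPM in D24. With 2 libraries on each side, values without overlap are common when nothing differs. Their share over all genes was not counted, for a single day or for the same direction on every day. For the 8 members other than Dnmt3l, the 95% intervals of the averaged change lay between -0.58 and 0.54.

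**Figure D4:**
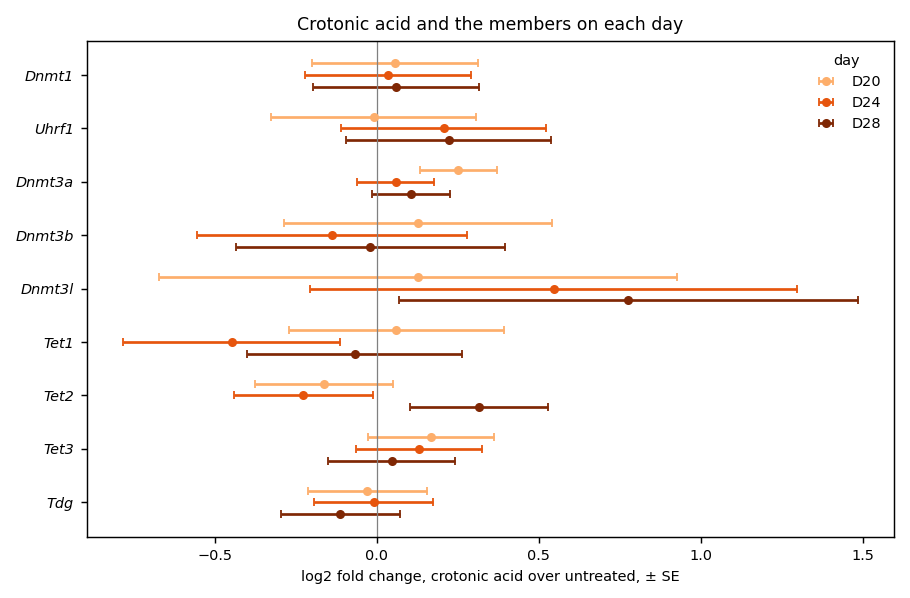
Log2 fold change of each member with crotonic acid over untreated cells at days 20, 24 and 28, with standard errors. No point passed the threshold; Dnmt3l has the widest error bars, from 10 to 55 counts per treated library.

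Balances within the family were tested as log2 FPKM ratios per library, treated against untreated, by exact permutation of labels within days (all arrangements, 2-sided, n = 6 each, 4 ratios). Tet1 over summed Tet2 and Tet3 was -2.62 ± 0.38 with crotonic acid and -2.37 ± 0.41 without (SD), a difference of -0.25 (exact p = 0.0833, adjusted over the 4 ratios 0.333), and 4 of 6 pairs went this way. Dnmt3l over summed Dnmt3a and Dnmt3b was -4.86 ± 1.08 with crotonic acid and -5.31 ± 0.91 without, a difference of 0.45 (exact p = 0.213). Dnmt3b over Dnmt3a differed by -0.17 (5 of 6 pairs, exact p = 0.435), and the summed Dnmt over summed Tet ratio by 0.00 (exact p = 0.981). None passed after adjustment. With treated and untreated libraries paired by day and replicate number, exact sign changes of the 6 pair differences gave p = 0.125 for Tet1 over Tet2 and Tet3, 0.125 for the Dnmt3l ratio, 0.0938 for Dnmt3b over Dnmt3a and 0.938 for Dnmt over Tet (2-sided, not adjusted).

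Within the treated cultures, day 28 was set against day 20. Tet3 had 64.6 and 64.3 CPM in D28+CA, against 121 and 134 CPM in D20+CA, and passed (log2 fold change -0.94 ± 0.20, adjusted p = 0.0199, edgeR). Of all genes tested 6.36% were called. Without any 1 of the 4 libraries compared its log2 fold change was -1.02 to -0.87. Without both libraries that carried liver transcripts 1 library was left on each side, with 64.3 CPM in D28+CA and 121 CPM in D20+CA. The call held in none of these fits, which leave a group with 1 library. Dnmt3l had 1.98 and 2.48 CPM in D28+CA, against 0.766 and 0.455 CPM in D20+CA (log2 fold change 1.89 ± 0.75, adjusted p = 0.163, edgeR). With the replicate number as a block, Dnmt3l was called as well (log2 fold change 1.97 ± 0.62, adjusted p = 0.0424, edgeR), and 23.0% of all genes were called. The summed naive markers were 457 and 464 CPM in D28+CA and 67.6 and 101 CPM in D20+CA.

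Several members followed the level of replication genes from library to library. Over the 14 reprogramming libraries, log2 CPM of Dnmt3b, Uhrf1 and Dnmt1 had Pearson r of 0.86, 0.84 and 0.81 with the mean log2 CPM of the 20 replication and mitosis genes, which these libraries share with their day and replicate number. Tdg had an r of 0.74. Dnmt3l went the other way, with an r of -0.68 in the reprogramming libraries, where it had 1 to 55 counts. D16 replicate 2, with 1 Dnmt3l count, also had the highest replication mean of these libraries. Over all 19 libraries the r of Dnmt3l was 0.79. In the reprogramming libraries Tet2 and Dnmt3a were also negative (-0.47 and -0.17), and Tet1 and Tet3 were positive (0.57 and 0.38). Between members, Dnmt1 and Uhrf1 had an r of 0.82 over the reprogramming libraries, and Dnmt1 and Dnmt3l one of -0.86. Over all 19 libraries these were 0.92 and 0.66. These are descriptions of libraries that share days and replicate numbers, with no test.

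**Figure D5:**
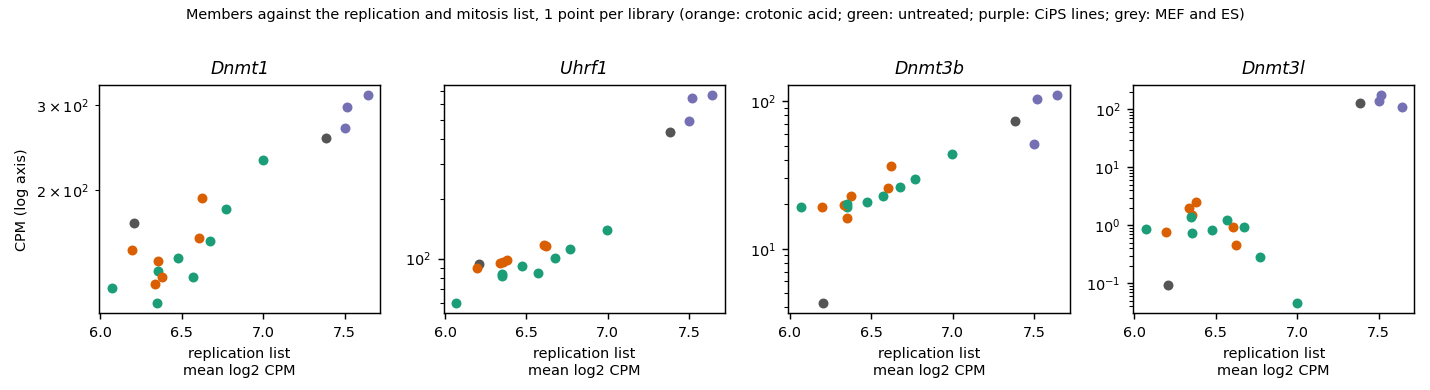
Level of Dnmt1, Uhrf1, Dnmt3b and Dnmt3l (CPM, log axis) against the mean log2 CPM of 20 replication and mitosis genes, 1 point per library. The first 3 rise with the list among reprogramming cells (r 0.81 to 0.86 over 14 libraries) while Dnmt3l does not (r -0.68). Over all 19 libraries drawn, the r of Dnmt3l is 0.79.

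Genes that work with the members were taken from 4 lists. In CiPS lines over day 28, where 59.5% of all genes were called and 29.1% were called higher, of 10 readers of methylated CpG 4 rose and 4 fell (median log2 fold change -0.26, against 0.02 over all genes). Zfp57, which guards imprinted methylation, rose by 4.34 ± 0.28 (adjusted p = 6.96e-08, edgeR), while Mbd2, a methyl-CpG repressor, fell by 1.04 ± 0.12 and Uhrf2, a relative of Uhrf1, fell by 0.92 ± 0.16. Of 25 tested recruiters, inhibitors and suppliers of cofactors 14 rose and 4 fell (median 0.58). Trim28, the corepressor bound by ZFP57, rose by 1.91 ± 0.20, and Usp7, a deubiquitinase that binds DNMT1 and UHRF1, rose by 1.75 ± 0.14. Kdm1b, a histone demethylase needed for maternal imprints in mouse oocytes, fell by 1.16 ± 0.19. Of 17 tested base excision repair genes 8 rose and 6 fell (median 0.29): the uracil glycosylase Ung rose by 2.51 ± 0.26 and Parp1 by 2.41 ± 0.18, while Smug1, another uracil glycosylase, fell by 1.22 ± 0.12. Of 20 replication and mitosis genes 15 rose and 0 fell (median 1.04), among them the helicase subunits Mcm2 at 1.98 ± 0.26 and Mcm5 at 2.16 ± 0.31.

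Earlier changes in these lists were smaller in number. At day 16 against MEFs, where 32.7% of all genes were called, 2 of 10 readers rose and 2 fell (median -0.06, against 0.03 over all genes), 5 of 25 recruiters and cofactor genes rose and 5 fell (median 0.00), 5 of 17 repair genes rose and 2 fell (median 0.47), and 1 of 20 replication genes rose and 0 fell (median 0.40). In the first 3 lists the share called was near that of all genes. Gadd45b, a stress gene linked to demethylation in mouse neurons, fell by 3.01 ± 0.25 (adjusted p = 3.78e-06, edgeR), and Cxxc4, which binds unmethylated CpG and restrains TET2, fell by 3.17 ± 0.53 (adjusted p = 0.000646, edgeR). At untreated day 28 against day 16, where 16.9% of all genes were called, Prdm14, a germ cell and naive pluripotency factor that represses Dnmt3b in mouse ES cells, rose by 2.80 ± 0.53 (adjusted p = 0.00567, edgeR), with Kdm1b also higher, and 0 of 25 fell. Gadd45a and Xrcc1 fell among 17 repair genes, by 0.85 ± 0.11 and 0.72 ± 0.15, Zbtb33 fell among 10 readers, and 0 of 20 replication genes were called. The medians of the 4 lists there were -0.10 to -0.06, against 0.01 over all genes. With crotonic acid averaged over days, 0 genes of any of the 4 lists were called (edgeR).

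The genes whose log2 CPM followed each member most closely over all 19 libraries are given as a description. Parp1 was closest to Tet1 (r = 0.99), Slbp to Uhrf1 (0.99), Slc4a1 to Tet2 (0.99), Pla2g1b to Dnmt3l (0.98), Nup85 to Dnmt1 (0.97), Dna2 to Dnmt3b (0.96) and Tmem132a to Tet3 (0.96). Tdg was matched best by Pigm (0.92) and Dnmt3a by Ccdc112 (0.81), the lowest of the 9 best matches. The libraries fall into separate clusters of pluripotent lines and other cells, which all these correlations share.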

How the data were processed

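Per the labels' protocols, a Qiagen mini kit purified the RNA and NEBNext Ultra reagents built the libraries. The sources used here name no aligner, counting tool, strandedness or genome build. The deposited count table, made by the authors, held whole-number reads per Ensembl gene, and the deposited FPKM table held those counts divided by gene length and by 1 factor per library; both were used as the authors made them. Symbols came from a gene table, in which 419 identifiers had none. Both tables held 1 column of per-sample values that matched no label, left unused, and the BrdU line was not analysed here.

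Counts were scaled by TMM factors, filtered with filterByExpr (minimum count 10) and tested 2-sided with the quasi-likelihood test of edgeR 4.0.16 in R 4.3.3, with Benjamini-Hochberg adjusted p under 0.05 over all genes tested. The reprogramming groups were fitted over 14 libraries and 17387 genes, and comparisons with MEFs, ES cells or lines over 19 libraries and 19597 genes (the 3 lines as 1 group, or by method). Intervals of fold changes use the fit's t distribution; counting intervals cover counting error only. The test was also run on simulated counts with the same spread for every gene and no replicate effect. That run does not cover the replicate pairing or the uneven spread of these libraries. The members, lists and tests were chosen with earlier results of these data known. The rule for named genes took all 9 members, and from each of 4 lists at most 3 called genes per direction with the smallest p; some such genes are not named.

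Replicate numbers paired the libraries: deviations from group means correlated at 0.18 to 0.50 in all 21 pairs of groups, and the fit with that number as a block is quoted where it changes a call or a count of calls by over 1.5 times. The alternatives were scaling by RLE or total counts, no filter on low counts, DESeq2 1.42.0, limma 3.58.1 (voom, or log2(FPKM + 1) and log2(FPKM + 0.1) at a mean FPKM of at least 1), compared groups alone, each library left out, and, chosen after seeing the data, fits without day 16 or without both libraries with liver transcripts.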

Additional observations from a re-analysis of the deposited data

How the results depend on the processing

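The numbers of members called in CiPS lines over day 28, MEFs or ES cells, and with crotonic acid on any day, averaged or by interaction, stayed within 1.5 times under every alternative run. The share of all genes called under each alternative is not given here, so a changed number below is not a result about the members. With the replicate block 2 members were called in D28+CA over D20+CA, against 1, and the block changed no other member's call. That count was also 2 with no filter or without the day 16 libraries, 3 without day 16 and with the block, 0 without both libraries with liver transcripts, with or without the block, and 0 when any single library was left out. Day 24 over day 20 gave 1 without day 16 and with the block, against 0. Day 16 over MEFs gave 3 with total-count scaling, 2 with no filter and 2 to 3 when a library was left out, against 1. Day 28 over day 16 gave 0 in the compared groups alone and 1 to 5 when a library was left out, against 1. CiPS CA lines over the three-step line gave 0 with total-count scaling or log2(FPKM + 0.1), 2 with DESeq2, voom, log2(FPKM + 1) or no filter, 4 alone, where the spread rests on 2 lines, and 0 with a line left out, against 1; the cause was not tested.

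With single libraries left out, log2 values in day 28 over day 16 ran from -0.87 to 0.042 for Dnmt1, -0.72 to 0.53 for Uhrf1, -1.02 to 0.22 for Dnmt3b and -0.95 to 0.25 for Tet1. Dnmt3l ran from -0.96 to 3.12 in day 16 over MEFs and Dnmt3a from -0.21 to 0.27 in CiPS lines over day 28. The crotonic acid differences in log2 ratio ran from 0.15 to 0.75 for Dnmt3l (exact p from 0.0463), -0.33 to -0.17 for Tet1 (exact p from 0.0278) and -0.050 to 0.052 for summed Dnmt over Tet, whose sign is not set. Over its alternatives, adjusted p of Tet3 ran from 1.29e-05 to 0.137 in day 28 over day 16 and from 6.77e-05 to 0.247 in D28+CA over D20+CA. Depth limits Dnmt3l alone, at 1 to 55 counts outside the pluripotent lines.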
